A study of Mus musculus with 6 samples.

Results

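The genes described here carry out G1/S entry and DNA replication: 37 mouse genes that license, fire and copy replication origins, supply deoxynucleotides, drive S phase entry or rebuild chromatin behind the fork. They were chosen by name from these pathways, and 44 of the 39429 non-control probes on the array carry a RefSeq accession of 1 of them. Of the 37 genes, 35 could be fitted, among 22057 genes and unnamed accessions. Mcm3 and Pcna could not, because their single spots were marked as outliers on siRNA-MEG3 arrays 1 and 3.

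C2C12, the source of the RNA, is a mouse myoblast cell line that divides in serum and fuses into myotubes when serum is withdrawn. All cells were grown in 10% fetal bovine serum and transfected with lipofection reagent at 70 to 80% confluence, the siRNA given in the labels as "20 um". The control group, siRNA-NC, received a negative control siRNA, and the siRNA-MEG3 group received an siRNA that targets Meg3, an imprinted long non-coding RNA. Each group had 3 single-colour Agilent arrays that the labels call biological replicates, and how long after transfection the cells were harvested is not stated in the labels.

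Array quality and array identity bear on every value below. Single spots of siRNA-MEG3 arrays 1 and 3 shared their scatter around the probe mean (r = 0.98 across spots, against -0.15 to 0.54 for the other 14 pairs of arrays), so both were counted as 1 sample. Probes repeated across siRNA-NC arrays 1 and 3 differed by no more than spot noise (variance ratio 1.02, against 176 for siRNA-NC arrays 1 and 2), so these too were counted as 1 sample. That left 2 samples a group, and the 2 siRNA-MEG3 samples may themselves be technical replicates. The variance ratio of siRNA-MEG3 arrays 1 and 2 was 1.43 over these probes, and over a looser set of 245 probes it was 0.992, where siRNA-NC arrays 1 and 3 gave 1.14. With the siRNA-MEG3 arrays merged to 1 sample, 32 of 37 replication genes had positive differences with a median of 0.64. In either case any p below reflects only how far these samples vary, which may be technical. Each group had a slide of its own, and slide and group therefore cannot be told apart. Between 70.1% and 75.2% of spots were well above background on siRNA-NC arrays, and between 62.8% and 69.3% on siRNA-MEG3 arrays. Dark blocks of spots, in which over 5% of otherwise bright spots read more than 4-fold below the siRNA-NC arrays, covered 33.9%, 5.95% and 25.0% of siRNA-MEG3 arrays 1, 2 and 3. Meg3 had 3 probes, and a signal well above background was seen for 1 of them, on siRNA-NC array 2 alone, so the arrays do not check the knockdown.

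Before S phase, the origin recognition complex, Cdc6 and Cdt1 load the Mcm2 to Mcm7 helicase onto origins; this is licensing. Cyclin E kinase and its partners then activate the helicase with Cdc45 and the GINS complex, and polymerases, clamp and clamp loader copy the DNA from a supply of deoxynucleotides. E2F transcription factors switch on many of these genes in cells that enter the cycle, and in skeletal muscle myoblasts leave the cycle before they fuse, so these genes are usually read as signs of dividing myoblasts.

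E2F factors bind short promoter sequences rich in T followed by G and C, and 4 octamers of this kind, TTTCCCGC, TTTCGCGC, TTTGCCGC and TTTGGCGC, were searched on both strands of RefSeq promoters (GRCm38.p6; 250 bases before to 50 after the gene start). The RefSeq table held an entry for 32 of the 37 genes, and for Mcm4, Gins1, Gins2, Pole and Ccne2 it held none. At least 1 octamer lay in 13 of the 32 (40.6%), against 704 of 27025 genes with an entry (2.60%) and 744 of 32851 windows of the same length (2.26%). The 13 genes were Mcm3, Mcm5, Mcm6, Mcm7, Cdc6, Cdt1, Orc1, Rfc3, Pola1, Lig1, E2f2, Uhrf1 and Hells. The CCAAT box, a common promoter element also read on both strands, lay in 19 of the 32 (59.4%) and in 41.1% of all genes with an entry. The stretches below are the 170 bases before the gene start, 5′ to 3′ on the gene's strand, for 5 licensing and chromatin genes with a match, and for Tyms and Dut, which had none and had the smallest p and a negative difference among the nucleotide genes. Capitals mark the octamers, which overlap on opposite strands in Mcm5 and Mcm6, and a match is a stretch of letters, not a measured binding site. They lie at chr8:75109339-75109508 (Mcm5, + strand), chr1:128359706-128359875 (Mcm6, - strand), chr11:98907981-98908150 (Cdc6, + strand), chr4:108579284-108579453 (Orc1, + strand), chr19:38930820-38930989 (Hells, + strand), chr5:30073626-30073795 (Tyms, - strand) and chr2:125247345-125247514 (Dut, + strand).
Mcm5: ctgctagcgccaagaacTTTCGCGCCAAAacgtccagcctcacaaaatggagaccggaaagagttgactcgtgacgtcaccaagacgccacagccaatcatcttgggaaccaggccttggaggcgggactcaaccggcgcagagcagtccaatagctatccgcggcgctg
Mcm6: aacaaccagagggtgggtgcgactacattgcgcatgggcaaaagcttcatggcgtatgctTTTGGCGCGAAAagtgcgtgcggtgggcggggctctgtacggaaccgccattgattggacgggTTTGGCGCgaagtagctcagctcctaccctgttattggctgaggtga
Cdc6: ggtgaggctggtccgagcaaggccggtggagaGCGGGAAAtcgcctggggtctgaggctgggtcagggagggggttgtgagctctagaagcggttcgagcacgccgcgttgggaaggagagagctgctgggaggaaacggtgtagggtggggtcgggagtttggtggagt
Orc1: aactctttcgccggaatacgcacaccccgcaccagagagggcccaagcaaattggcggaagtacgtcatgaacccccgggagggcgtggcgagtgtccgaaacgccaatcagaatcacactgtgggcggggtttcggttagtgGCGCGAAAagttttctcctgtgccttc
Hells: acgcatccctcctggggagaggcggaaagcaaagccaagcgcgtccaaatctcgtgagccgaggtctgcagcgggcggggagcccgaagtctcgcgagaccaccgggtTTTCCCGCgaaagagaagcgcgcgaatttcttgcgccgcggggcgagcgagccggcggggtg
Tyms: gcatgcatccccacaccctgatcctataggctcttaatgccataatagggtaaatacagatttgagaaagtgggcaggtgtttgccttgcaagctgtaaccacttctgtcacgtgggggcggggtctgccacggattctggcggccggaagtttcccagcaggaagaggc
Dut: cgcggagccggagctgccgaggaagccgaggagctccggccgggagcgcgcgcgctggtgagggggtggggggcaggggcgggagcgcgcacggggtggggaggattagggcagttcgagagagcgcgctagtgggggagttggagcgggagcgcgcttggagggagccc

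**Figure D1:**
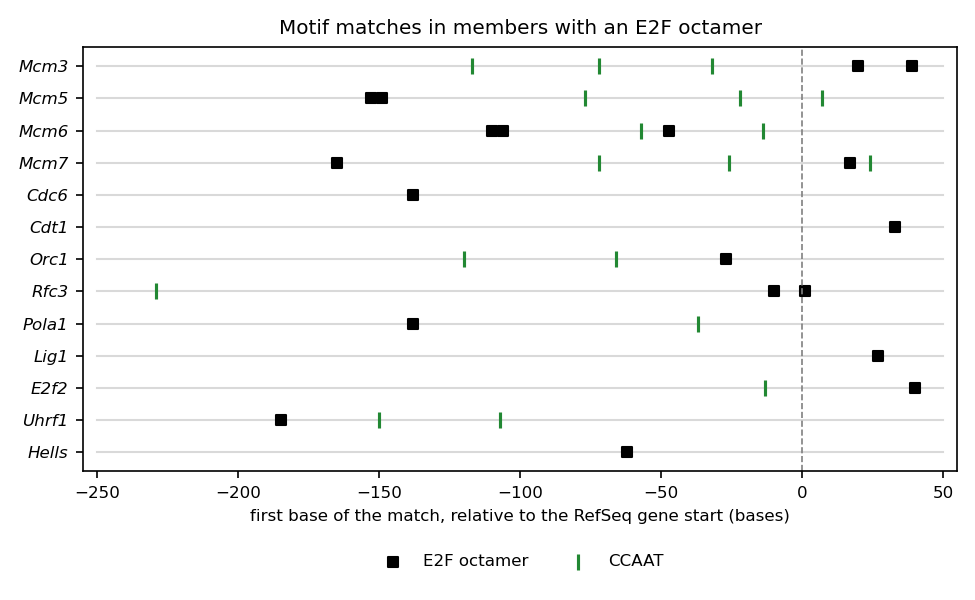
Positions of E2F octamer and CCAAT matches in the promoters of the 13 genes with an octamer. The x axis gives the first base of each match relative to the RefSeq gene start, in bases, and each line of marks is 1 gene; matches lie on both sides of the start.

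Across the set, most replication genes read higher on the siRNA-MEG3 arrays, and no single gene passed the test. The difference, siRNA-MEG3 minus siRNA-NC on the log2 scale, was positive for 30 of the 35 fitted genes (85.7%, against 48.9% of all 22057) and its median was 0.68, or 1.60-fold, against -0.01 over all. With limma and Benjamini-Hochberg adjustment over all genes, 0 of the 35 passed an adjusted p of 0.05, where 0.902% of all genes passed as higher and 0.358% as lower (1.26% in all). At an unadjusted limma p under 0.05, 17 were higher and 1 was lower, where 10% and 8.31% of all genes were. All siRNA-MEG3 arrays lay above all siRNA-NC arrays for 25 of the 35 genes (25.5% of all genes) and below them for 2 (21.4% of all genes). Ccne2, the 1 lower gene and 1 of the 2 below, entered the fit through the controls and rests in part on background signal. The difference was at least 0.5 for 20 genes and at least 1 for 6, namely Mcm5, Orc1, Mcm10, Tyms, E2f2 and Uhrf1. The spot of Mcm5 lay in a dark block of 1 siRNA-MEG3 array, and those of Orc1, Mcm10 and Tyms in dark blocks of 2. With dark spots left out Mcm5 stood at 1.345, while Orc1, Mcm10 and Tyms could not be fitted. Adjusted p ran from 0.0802 for Tyms to 0.991 for Rfc3. These are bulk RNA values, in which fewer cells of a type and less RNA per cell cannot be told apart.

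**Figure D2:**
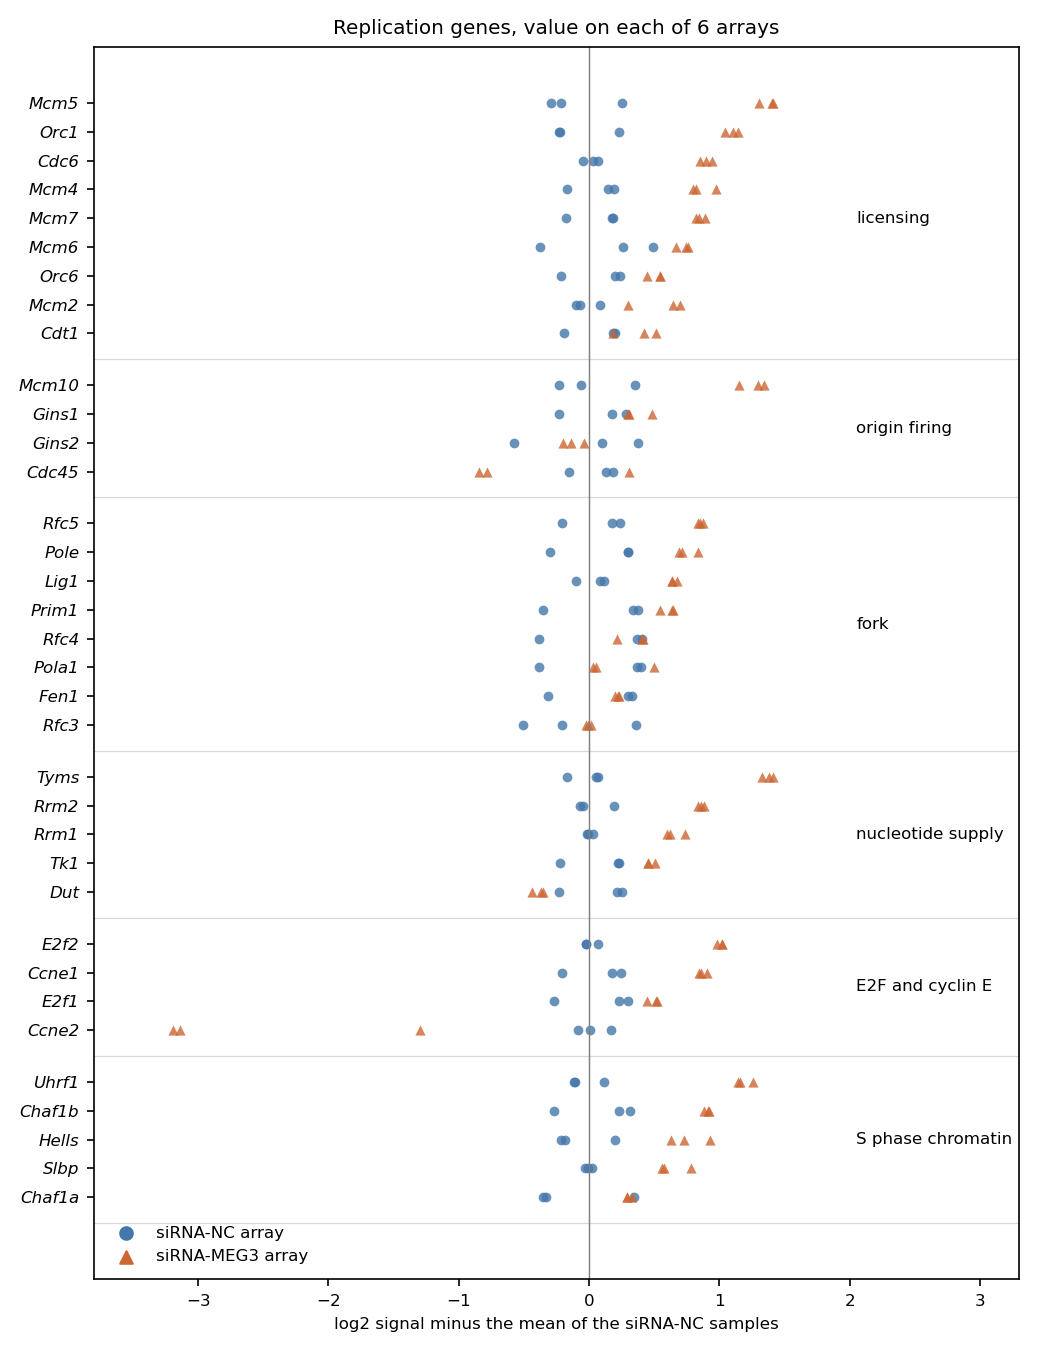
The log2 signal of each fitted replication gene on each of the 6 arrays, minus the mean of the siRNA-NC samples (x axis), with genes in lines grouped by role. For 25 of 35 genes the siRNA-MEG3 marks all lie to the right of the siRNA-NC marks, and for Dut and Ccne2 they all lie to the left.

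**Figure D3:**
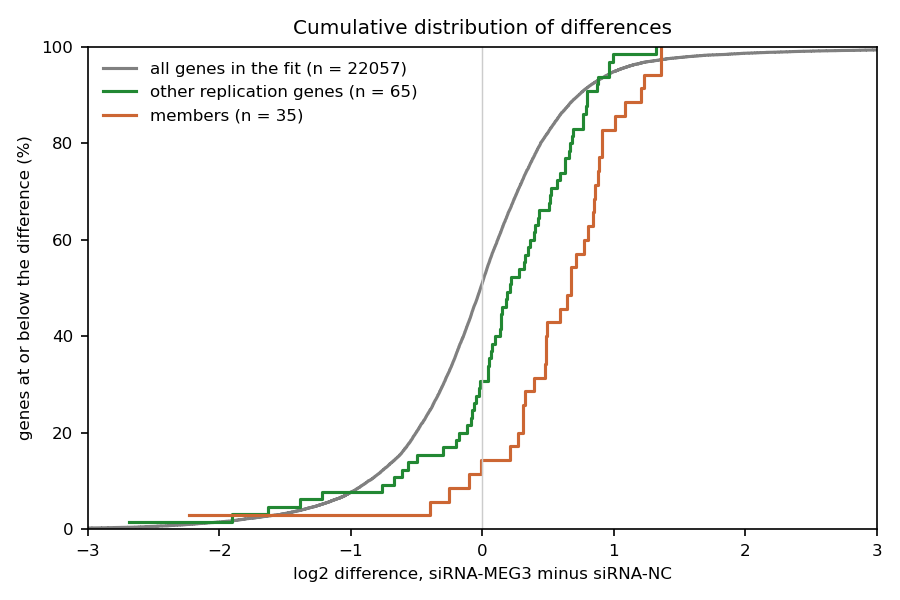
Share of genes (y axis, percent) at or below each log2 difference, siRNA-MEG3 minus siRNA-NC (x axis), for the 35 replication genes, the other pathway genes and all genes in the fit. The medians were 0.68, 0.21 and -0.01.

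The licensing genes had positive differences throughout: 9 of the 10 could be fitted, all 9 were positive and 8 had arrays that did not overlap. Their median was 0.84, with 0 past the test and 5 at an unadjusted p under 0.05. Counts by role are to be read against all genes, of which 25.5% had arrays that did not overlap on the higher side and 21.4% on the lower. At an unadjusted limma p under 0.05, 10% of all genes were higher and 8.31% lower. Values from here on are log2 processed signals relative to the 75th percentile of their array, differences are given with the standard error of the limma fit (n = 2 samples per group), and each adjusted p is limma's over all genes. Mcm5, a subunit of the replicative helicase, read -0.42, 0.06 and -0.49 on siRNA-NC arrays 1, 2 and 3, and 1.21, 1.11 and 1.21 on siRNA-MEG3 arrays 1, 2 and 3. The siRNA-MEG3 arrays lay more than 1 log2 unit above the highest siRNA-NC array, and the difference was 1.36 ± 0.27, or 2.56-fold (adjusted p = 0.126). Orc1, the large ATPase subunit of the origin recognition complex, read -3.47, -3.01 and -3.46 in siRNA-NC and -2.13, -2.20 and -2.10 in siRNA-MEG3. Its difference was 1.08 ± 0.25, or 2.12-fold (adjusted p = 0.158), and its groups did not overlap. Cdc6, the loading factor that Orc recruits, read -2.44, -2.56 and -2.48 against -1.66, -1.57 and -1.62, a difference of 0.91 ± 0.20 (adjusted p = 0.150). The 3 arrays of each group lay close together for Cdc6, with siRNA-NC array 2 the lowest of all.

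The other helicase subunits read in the same direction at smaller size. Mcm4 stood at 2.26, 1.95 and 2.31 in siRNA-NC and 2.91, 3.09 and 2.94 in siRNA-MEG3 (0.89 ± 0.24, adjusted p = 0.182). Mcm7 stood at 2.99, 2.64 and 3.00 against 3.66, 3.64 and 3.71 (0.84 ± 0.23, adjusted p = 0.191). In both genes siRNA-NC array 2 was the lowest array and the siRNA-MEG3 arrays were level. Mcm6 read 3.77, 3.14 and 4.0 against 4.27, 4.18 and 4.26 (0.71 ± 0.33, adjusted p = 0.353), and without siRNA-NC array 2, its lowest array, the difference was 0.34. Mcm2 read 1.26, 1.42 and 1.23 against 1.98, 1.63 and 2.03 (0.49 ± 0.24, adjusted p = 0.389), with siRNA-MEG3 array 2 nearest the controls. Orc6, another subunit of the origin recognition complex, read 3.11, 2.69 and 3.15 against 3.46, 3.36 and 3.45 (0.49 ± 0.25, adjusted p = 0.396, and 0.28 without siRNA-NC array 2). Cdt1, which brings the helicase to Cdc6, was the licensing gene whose arrays overlapped: 1.5, 1.13 and 1.52 against 1.84, 1.51 and 1.74, a difference of 0.33 ± 0.26 (adjusted p = 0.582), or 0.13 without siRNA-NC array 2. Mcm3, not fitted, read 1.41, 0.87 and 1.47 in siRNA-NC and 1.44 on siRNA-MEG3 array 2. With its outlier-marked spots kept it read 1.21, 0.69 and 1.27 against 1.15, 1.24 and 1.18, so its groups overlapped.

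Of the 4 genes that turn a licensed origin into a fork, Mcm10 had the largest difference. Mcm10, which helps the loaded helicase to start unwinding, read -0.63, -0.47 and -0.05 in siRNA-NC and 0.89, 0.74 and 0.94 in siRNA-MEG3. All siRNA-MEG3 arrays lay above the highest control, and the difference was 1.23 ± 0.21, or 2.35-fold (adjusted p = 0.0998). Gins1, a GINS subunit, read 0.28, -0.12 and 0.39 against 0.41, 0.59 and 0.42 (0.39 ± 0.26, adjusted p = 0.513, and 0.17 without siRNA-NC array 2). Its groups did not overlap, by a margin of hundredths of a log2 unit. Gins2, another GINS subunit, read -2.07, -2.35 and -3.03 against -2.65, -2.49 and -2.59 (-0.10 ± 0.22, adjusted p = 0.852). Cdc45, the helicase activator, read -4.30, -4.58 and -4.24 against -5.21, -4.12 and -5.27 (-0.25 ± 0.45, adjusted p = 0.823). For Cdc45 siRNA-MEG3 array 2 was the highest of all 6 arrays while arrays 1 and 3 were the lowest. Leaving out siRNA-NC array 2 gave Cdc45 a difference of -0.41, leaving out siRNA-MEG3 array 2 one of -0.81, and that of Gins2, whose groups overlapped, ran from -0.34 without siRNA-NC array 3 to 0.13 without siRNA-NC array 1. The subgroup median was 0.14, with 2 of 4 differences positive, 0 past the test and 1 at an unadjusted p under 0.05.

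Fork genes were mixed in size, with 7 of 8 fitted differences positive, a median of 0.45, 4 genes whose arrays did not overlap, 0 past the test and 2 at an unadjusted p under 0.05. Rfc5, a subunit of the clamp loader, read 0.76, 0.37 and 0.81 in siRNA-NC and 1.43, 1.45 and 1.41 in siRNA-MEG3 (0.86 ± 0.25, adjusted p = 0.198). Pole, the catalytic subunit of the leading strand polymerase, read 1.24, 0.64 and 1.23 against 1.62, 1.77 and 1.65 (0.77 ± 0.29, adjusted p = 0.281). Without siRNA-NC array 2, where Pole was lowest, its difference was 0.47. Lig1, the ligase that seals Okazaki fragments, read 0.45, 0.27 and 0.48 against 1.00, 1.01 and 1.04 (0.65 ± 0.21, or 1.57-fold, adjusted p = 0.232). Prim1, the catalytic primase subunit, read 1.95, 1.22 and 1.91 against 2.22, 2.12 and 2.21 (0.59 ± 0.32, adjusted p = 0.417, and 0.24 without siRNA-NC array 2). In all 4 of these genes every siRNA-MEG3 array lay above every control.

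The remaining fork genes overlapped between groups. Pola1, the catalytic subunit of the priming polymerase, read 1.20, 0.42 and 1.17 against 0.84, 1.31 and 0.86 (0.27 ± 0.37, adjusted p = 0.758, and 0.04 without siRNA-MEG3 array 2). Fen1, the flap nuclease that trims Okazaki fragments, read 1.67, 1.05 and 1.70 against 1.59, 1.57 and 1.60 (0.21 ± 0.29, adjusted p = 0.768). For both genes siRNA-NC array 2 was the lowest array, and without it the differences were -0.11 and -0.10. Rfc4, another clamp loader subunit, read 2.62, 1.87 and 2.66 against 2.66, 2.47 and 2.67 (0.31 ± 0.34, adjusted p = 0.697; -0.07 without siRNA-NC array 2). Rfc3, a further subunit, read -1.15, -0.58 and -1.45 against -0.95, -0.97 and -0.93 (-0.01 ± 0.32, adjusted p = 0.991). Rfc3 was the reverse case, with siRNA-NC array 2 its highest array, and without that array its difference was 0.35. Pcna, the sliding clamp and a usual marker of dividing cells, was not fitted: it read 4.49, 4.08 and 4.52 in siRNA-NC and 4.32 on siRNA-MEG3 array 2. With outlier-marked spots kept, Pcna read 4.30, 3.90 and 4.32 against 4.06, 4.12 and 4.15, and its groups overlapped.

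Among the genes of nucleotide supply, 4 of 5 had positive differences with arrays that did not overlap, and Dut had a negative one. The median was 0.68, with 0 past the test and 3 at an unadjusted p under 0.05. Tyms, thymidylate synthase, which makes dTMP, read 0.91, 1.14 and 1.15 in siRNA-NC and 2.47, 2.41 and 2.49 in siRNA-MEG3. Each group was tight and the gap between them exceeded 1 log2 unit: the difference was 1.36 ± 0.20, or 2.57-fold (adjusted p = 0.0802). With an intensity trend in limma's variance model the adjusted p was 0.0455. In limma with the replicate number as a block in 4 samples it was 0.179, and with no filter on dim probes 0.188. Rrm2, the regulatory subunit of ribonucleotide reductase that cycles with S phase, read 3.72, 3.45 and 3.48 against 4.38, 4.36 and 4.41 (0.85 ± 0.21, or 1.81-fold, adjusted p = 0.164). Rrm1, its catalytic subunit, read 2.01, 2.02 and 2.06 against 2.63, 2.77 and 2.65 (0.68 ± 0.20, adjusted p = 0.211). Tk1, the thymidine salvage kinase, read 2.76, 2.30 and 2.75 against 2.98, 3.03 and 2.98 (0.48 ± 0.25, adjusted p = 0.413, and 0.25 without siRNA-NC array 2). The siRNA-NC arrays of Rrm1 lay close together, while array 2 of Tk1 stood well below the others. Dut, which breaks down dUTP, read 2.40, 1.95 and 2.43 in siRNA-NC and 1.81, 1.74 and 1.83 in siRNA-MEG3. All siRNA-MEG3 arrays lay below the lowest control, and the difference was -0.40 ± 0.26, or 1.32-fold lower (adjusted p = 0.501), and -0.63 without siRNA-NC array 2.

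The cyclin E genes differed in sign. Ccne1, cyclin E1, which activates Cdk2 at the G1/S boundary, read 0.61, 0.16 and 0.55 in siRNA-NC and 1.21, 1.27 and 1.22 in siRNA-MEG3 (0.88 ± 0.25, or 1.84-fold, adjusted p = 0.195). Ccne2, cyclin E2, read -4.36, -4.61 and -4.51 against -7.71, -5.82 and -7.66 on these arrays. Its probe entered the fit through the controls, being well above background on 3 siRNA-NC arrays and on 1 of 3 siRNA-MEG3 arrays, so the fitted difference of -2.23 ± 0.67 rests in part on background signal and is given without a fold or a p. The Ccne2 spot also lay in dark blocks of 2 siRNA-MEG3 arrays, whose part in the result was not tested. With normexp background correction its difference was -0.51, and without siRNA-MEG3 array 2, the one array of that group with a signal, it was -3.16. E2f2, an activating E2F, read -2.82, -2.91 and -2.91 against -1.87, -1.86 and -1.90 (1.01 ± 0.20, or 2.02-fold, adjusted p = 0.126), with both groups tight. E2f1, the best known activating E2F, read -0.33, -0.83 and -0.26 against -0.04, -0.12 and -0.05 (0.48 ± 0.27, adjusted p = 0.444, and 0.22 without siRNA-NC array 2). Its siRNA-MEG3 arrays lay above the controls by less than the distance between control arrays. The median of the 4 was 0.68, with 3 positive, 0 past the test and 2 higher at an unadjusted limma p under 0.05. The 1 lower at that p was Ccne2, which rests in part on background signal and is not read as a call.

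All 5 genes that restore or mark chromatin in S phase had positive differences, with a median of 0.81, 0 past the test and 4 at an unadjusted p under 0.05. Uhrf1, which brings the maintenance DNA methyltransferase to new DNA, read 1.51, 1.73 and 1.51 in siRNA-NC and 2.77, 2.88 and 2.78 in siRNA-MEG3. The gap exceeded 1 log2 unit on every array, and the difference was 1.21 ± 0.22, or 2.31-fold (adjusted p = 0.108). Hells, a chromatin remodeler needed for DNA methylation, read -0.88, -0.49 and -0.90 against -0.06, 0.24 and 0.04 (0.81 ± 0.26, or 1.75-fold, adjusted p = 0.226). Slbp, which binds the stem loop of replication histone mRNAs, read 0.74, 0.80 and 0.77 against 1.35, 1.56 and 1.34 (0.68 ± 0.21, adjusted p = 0.223). Both had groups that did not overlap, with siRNA-MEG3 array 2 the highest of all. The histone chaperone genes of the CAF-1 complex differed in overlap: Chaf1b read 0.05, -0.45 and 0.14 against 0.71, 0.74 and 0.74 (0.91 ± 0.27, adjusted p = 0.209). Chaf1a read -1.98, -1.30 and -2.0 against -1.35, -1.31 and -1.35 (0.31 ± 0.31, adjusted p = 0.666). Its siRNA-NC array 2 was level with the siRNA-MEG3 arrays, and without that array its difference was 0.65.

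Probes of the same replication gene pointed the same way where both could be measured. Of the 37 genes 30 had 1 probe and 7 had 2, and in 5 of those 7 both probes were above background in at least 1 group. The sign was the same in all 5, with gaps between the probes from 0.10 to 0.63. It was positive in each, as it was for 85.7% of the fitted genes. In other pathway genes probes could differ in sign: those of Mcm8 gave -0.08 and 0.72, while those of Donson gave 0.59 and 1.06. The brighter probe of Cdc6 gave 0.91 and the other 1.01, those of Ccne1 0.88 and 0.76, those of Chaf1b 0.91 and 0.79, and those of Slbp 0.68 and 0.45. Rfc4 had the widest gap: its brighter probe gave 0.31 with overlapping arrays, and its other probe read -0.86, 0.00 and -1.07 against 0.49, 0.44 and 0.47, a difference of 0.94 with no overlap. For Rfc4 the brighter probe lay in dark blocks of 2 siRNA-MEG3 arrays and the other in none. The second probes of Pole and Uhrf1 were not well above background on any array.

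**Figure D4:**
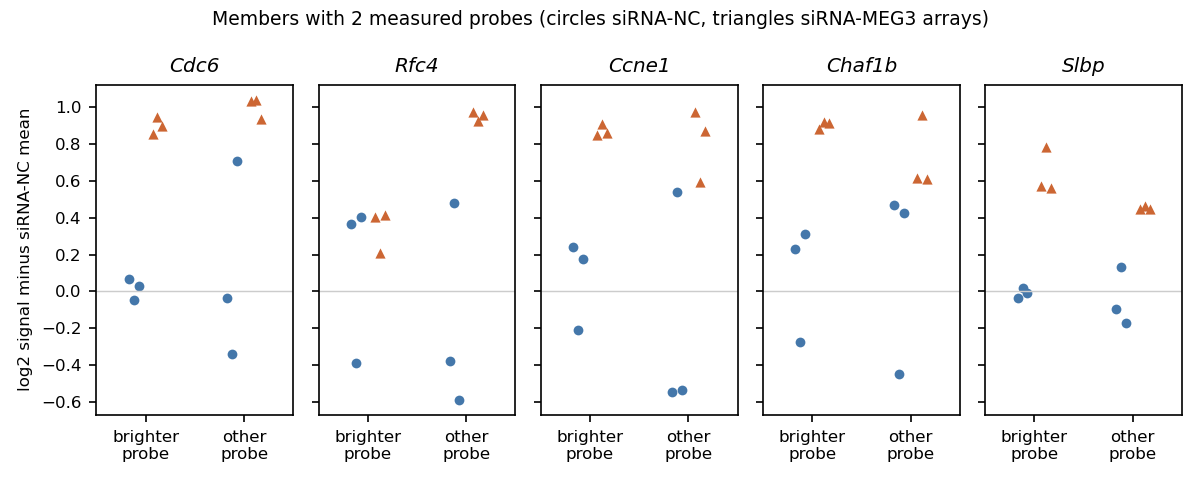
Log2 signal minus the siRNA-NC mean (y axis) on each array for the 5 genes with 2 measured probes, circles for siRNA-NC and triangles for siRNA-MEG3 arrays, brighter probe left and other probe right in each panel. The differences have the same sign in each gene, and the pair of Rfc4 lies farthest apart, at 0.31 and 0.94.

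Genes with and without an octamer overlapped in their differences. The 12 fitted genes with an octamer had a median difference of 0.82 (-0.01 to 1.36, 11 positive), and the 18 with a promoter entry and no octamer a median of 0.54 (-0.40 to 1.36, 16 positive). Mcm5, with 2 overlapping octamers, and Tyms, with none in this window, had the same difference to 2 decimals. Rfc3, with octamers near the start, stood at -0.01. The difference between both groups of genes was not tested.

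Other genes of the replication pathway had differences of both signs. Of 68 further genes 65 could be fitted: 45 differences were positive and 20 negative, the median was 0.21, and 0 passed the test. At an unadjusted limma p under 0.05, 11 were higher and 5 lower, where 10% and 8.31% of all genes were. The 5 lower genes include Mcm9, which read only background signal in siRNA-MEG3. Arrays did not overlap for 28 higher and 9 lower genes, shares to be read against the 25.5% and 21.4% of all genes. By role, 20 of 24 fork genes (median 0.34), 8 of 9 origin firing genes (0.39), 5 of 6 chromatin genes (0.37), 6 of 11 E2F and cyclin genes (0.22), 4 of 8 licensing genes (0.07) and 2 of 7 nucleotide genes (-0.12) had positive differences. The gene with the smallest p in each role differed in sign. It had a negative difference for origin firing (Gins3), nucleotide supply (Rrm2b) and the E2F and cyclin genes (E2f4). For the fork (Dna2) and chromatin (Dnmt1) genes its difference was positive. For licensing the gene with the smallest p was Mcm9, whose probe entered the fit through the controls, so its p sets background signal against them.

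Among these 6, Dna2, a nuclease and helicase that processes Okazaki fragments, read -2.41, -2.47 and -2.42 in siRNA-NC and -0.96, -1.26 and -1.01 in siRNA-MEG3 (1.32 ± 0.22, or 2.50-fold, adjusted p = 0.0958). Dnmt1, the maintenance DNA methyltransferase that works with Uhrf1, read -0.27, 0.11 and -0.15 against 0.63, 0.53 and 0.63 (0.63 ± 0.23, adjusted p = 0.270). Both had no overlap between groups, on the higher side. Their spots lay in dark blocks of 2 siRNA-MEG3 arrays, and neither gene could be fitted with dark spots left out. E2f4, an E2F that acts mainly as a repressor in resting cells, read 0.16, -0.28 and 0.19 against -1.60, -1.75 and -1.64 (-1.63 ± 0.26, adjusted p = 0.0860). Rrm2b, the ribonucleotide reductase subunit that p53 induces, read -0.35, -1.05 and -0.36 against -2.06, -2.10 and -2.11 (-1.39 ± 0.31, adjusted p = 0.150). Gins3, a GINS subunit, read 3.96, 3.02 and 3.97 against 1.16, 1.99 and 1.19 (-1.91 ± 0.47, adjusted p = 0.169). For these 3 genes all siRNA-MEG3 arrays lay below all controls; the Gins3 spot lay in dark blocks of 2 siRNA-MEG3 arrays, whose part in the result was not tested. The E2f4 spot lay in those of 1, and with dark spots left out its difference was -1.66 (adjusted p = 0.0635). Mcm9, a helicase relative that acts in repair, read -3.73, -4.15 and -3.37 in siRNA-NC and stayed under the background limit on all 3 siRNA-MEG3 arrays (not well above background). The probe entered the fit through the controls. On the processed signal scale its level was at least 4.13-fold lower in siRNA-MEG3 (adjusted p = 0.115, which sets background signal against the controls), the bound taken from the lowest signal well above background on each array or the probe's own where higher. With normexp background correction its difference was -0.51, smaller than that bound, and its spot lay in dark blocks of all 3 siRNA-MEG3 arrays.

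Muscle differentiation markers stood beside these values. Of 8 myotube genes all 8 had positive differences, with a median of 3.56. The limma test was passed by 5 of them, where 0.902% of all genes passed as higher. Ckm entered the fit through the siRNA-MEG3 arrays and was well above background on only 2 of 3 siRNA-NC arrays. Its difference therefore rests in part on background signal. The summed level of the 8 genes was 8.53 to 10.2 times the 75th percentile in siRNA-NC and 61.1 to 64.8 in siRNA-MEG3. Acta1, the brightest of the 8 in siRNA-NC at 3.04, had the smallest difference, at 0.65. Myog, the transcription factor that starts myoblast differentiation, was higher by 3.40 ± 0.22 (adjusted p = 0.0260). Of 8 myoblast genes 5 differences were positive and 3 negative, and 0 passed. At an unadjusted limma p under 0.05, 3 were higher and 1 lower, where 10% and 8.31% of all genes were. The summed level of the myoblast genes was 47.2 to 58.7 against 68.4 to 69.6. Myod1 stood at 2.22, Cdh15 at 1.34, Itga7 at 0.75, Vcam1 at 0.24 and Ncam1 at 0.22. Myf5 stood at -2.94, Pax7 at -0.36 and Des at -0.29. Pax7 was well above background on 3 siRNA-NC arrays and 1 siRNA-MEG3 array, so its difference rests in part on background signal. Of 4 fibroblast genes 3 could be measured and summed to 39.3 to 44.0 against 38.8 to 39.4, and Tcf21 was below background. Dcn, the brightest of the 3, stood at -0.03, Lum at 0.03 and Pdgfra at -0.74, and 0 passed the test. Pdgfra had spots in dark blocks of all 3 siRNA-MEG3 arrays. Pecam1 and Ptprc, markers of endothelial and blood cells, summed to 0.17 to 0.25 against 0.12 to 0.50, and the epithelial marker Epcam was below background on every array. The part of the myotube genes in the replication gene values was not tested.

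Spot quality differed among the replication genes. Of the 35 fitted genes 14 had their spot in a dark block of at least 1 siRNA-MEG3 array and a median difference of 0.48. The other 21 lay outside with a median of 0.77. Dark blocks were picked by low readings against the siRNA-NC arrays. A lower median inside them, and a higher one with their spots left out, are therefore partly built in. The dark blocks held 4 of the 5 genes with a negative difference (Cdc45, Gins2, Dut and Ccne2) and 10 of the 30 with a positive one. Among those 10 were Mcm5, Orc1, Mcm10 and Tyms. With dark spots left out Cdc45 stood at -0.28 and Gins2 at -0.10. Dut and Ccne2 could then not be fitted, nor could Orc1, Mcm10 and Tyms. In all, 25 genes could then be fitted, of which 22 were positive and the median was 0.76. For siRNA-MEG3 array 2 alone, the array with the smallest dark area, 31 of 35 differences from the siRNA-NC mean were positive with a median of 0.67, and for arrays 1 and 3 it was 31 with a median of 0.65. Of the 35 genes, 34 were well above background on all 6 arrays, Ccne2 being the exception.

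The control samples were, at the median, farther apart than the siRNA-MEG3 samples. The siRNA-NC samples lay a median of 0.41 apart over the 35 genes (0.41 over all genes) and at most 0.77, and siRNA-NC array 2 was the lower sample for 25 of 35. The siRNA-MEG3 samples lay a median of 0.09 apart (0.13 over all genes), with Ccne2 farthest at 1.86. Without siRNA-NC array 2, which leaves 1 control sample assumed to vary like the siRNA-MEG3 samples, 28 of 35 differences were positive with a median of 0.57, against a median of -0.12 over all genes. In the authors' deposited table, which held all 37 genes, the 35 fitted genes had 30 positive differences and a median of 0.68.

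**Figure D5:**
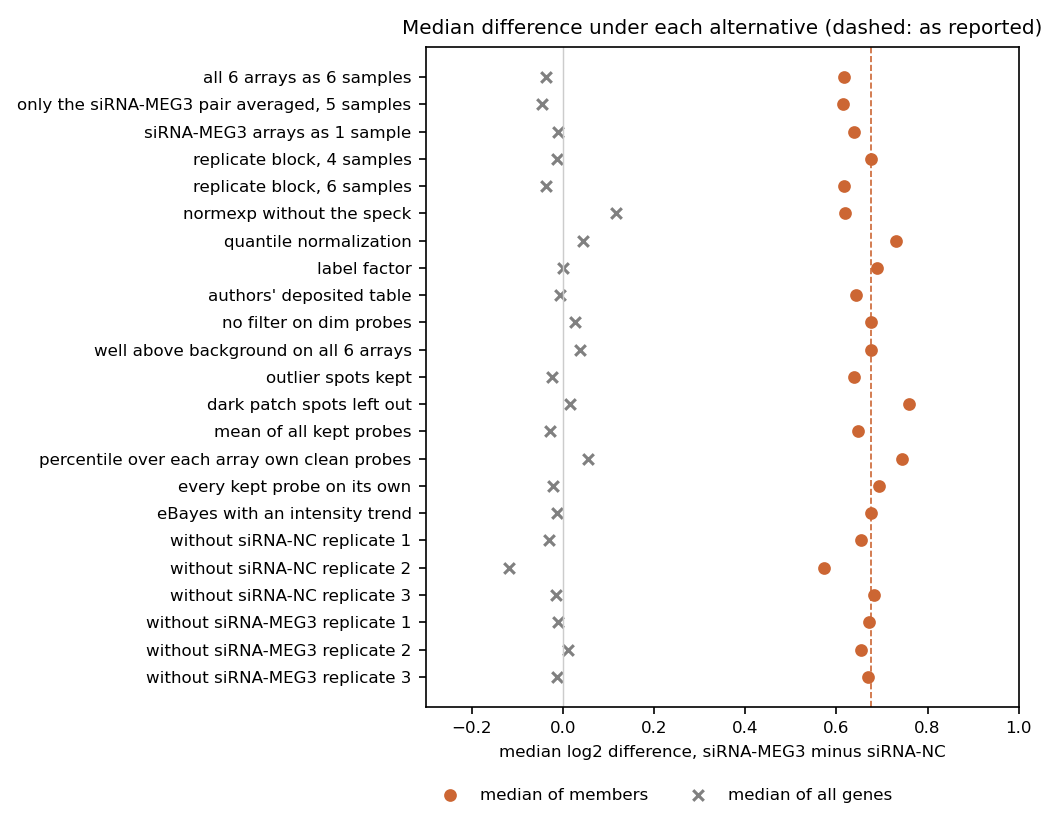
Median log2 difference (x axis, siRNA-MEG3 minus siRNA-NC) of the replication genes and of all genes under each alternative treatment of the data (y axis), the dashed line marking the reported 0.68. The replication genes' median stayed between 0.57 and 0.76, and that of all genes between -0.12 and 0.12.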

How the data were processed

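Agilent Feature Extraction 11.0.1.1 produced the deposited array files, per the file headers, and gave each spot a background-subtracted processed signal intensity and quality marks. The authors' deposited table holds log2 values for 30732 probes; all 6 columns share a median of 8.11 and correlated with the scanner's log2 processed signal (r from 0.9991 to 0.9997), which gave their scale and direction, while the between-array step that made them is unknown. Per the labels, a normalization factor came from probes whose intensities reached 30 on every array.

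After removal of control spots and of those with a non-uniformity or population outlier mark, spots of a probe were averaged, and log2 processed signals were set relative to each array's 75th percentile over 38739 probes usable on all 6 arrays. Of 39429 probes, 27234 were named through RefSeq accessions (GRCm38.p6) and 12195 kept the accession only; the probe design used an older assembly. Probes entered the fit if every array of a group, or of both, read them well above background, and the brightest stood for its gene. Signals near background have no exact level, and only 4 samples limit the precision.

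Arrays found to be one hybridisation or to differ by no more than spot noise were averaged, from 230 probes printed at least 10 times. The 4 samples were fitted with limma 3.58.1 under R 4.3.3 (lmFit, then eBayes; group as the only term, two-sided) with Benjamini-Hochberg adjustment over 22057 genes at 0.05; the script was tested on simulated data. The labels' replicate numbers were checked for pairing: deviations of same-numbered arrays correlated at -0.03, -0.04 and -0.03, so they were not used as a block. All listed genes are named, and of the other pathway genes the one with the smallest p in each role. The genes, lists and tests were chosen with earlier results of these data known. The alternatives were other sample counts, the block, background correction, scaling, filters, spot and probe choices, an intensity trend and leaving out each array. Meg3's own level and coordinates of the array probes are not reported.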

Additional observations from a re-analysis of the deposited data

How the results depend on the processing

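Of 759 values of a replication gene under an alternative, 704 kept their direction and side of the threshold, 40 kept direction and passed, and 15 reversed; 29 of 35 genes kept their direction throughout. Passing replication genes numbered 18 higher and 1 lower with all 6 arrays as 6 samples, 8 higher with 5 samples (siRNA-MEG3 arrays 1 and 3 averaged), 1 lower (Ccne2) when all siRNA-MEG3 arrays were merged, and 1 higher (Tyms) with an intensity trend; arrays that repeat 1 sample narrow the spread by construction. Other pathway genes numbered 17 higher and 8 lower, 5 and 5, and 3 lower in the first 3 of these. With the replicate number as a block, which the labels share only as a number, 0 passed in 4 samples. With it in 6 samples, 10 higher replication genes and 6 higher and 4 lower pathway genes passed. These counts are to be read against all genes, of which 14.1% passed as higher with 6 samples and 4.21% with 5. The share was 6.31% with the block in 6 samples and 0.952% with the intensity trend. Passing as lower were 2491 of 21945 genes with 6 samples, 885 of 22024 with 5, and 1181 of 21945 with the block in 6. Leaving out each array gave 0 higher and 0 to 1 lower replication genes (Ccne2, without siRNA-MEG3 array 2), a median of 0.57 to 0.68, and 0 to 1 higher and 0 to 3 lower pathway genes. Rfc3 reversed to 0.11 with 6 samples, 0.11 with 5, 0.11 with the block in 6, 0.0801 with normexp, 0.0568 with quantile normalization, 0.00115 with the labels' factor and 0.0567 with each array's own percentile, which was added after seeing the data. Cdc45 reversed to 0.0408 with normexp. Ccne2 and, among the pathway genes, Mcm9 entered the fit through the controls, so their counts as lower here rest in part on background signal. Leaving out an array gave -0.0867 to 0.35 for Rfc3, -0.34 to 0.13 for Gins2, -0.11 to 0.28 for Pola1, -0.10 to 0.23 for Fen1 and -0.0744 to 0.41 for Rfc4; the cause was not tested. Over all genes, 199 higher and 79 lower passed; these became 3091 and 2491 with 6 samples, 927 and 885 with 5, 469 and 792 where they were merged, 1384 and 1181 with the block in 6, 140 and 49 with it in 4, 106 and 63 with normexp, 254 and 125 with quantile normalization, 241 and 123 in the authors' deposited table, 209 and 119 with probes above background on all 6 arrays, 225 and 131 without dark spots, 210 and 118 with the trend, 1183 and 1735 without siRNA-MEG3 array 2, 154 and 36 without siRNA-NC array 1, and 0 in limma with no filter (4265 at an unadjusted p under 0.05) and without siRNA-NC array 2 (7422). Normexp moved the median of all genes to 0.12.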
